A study of Mus musculus with 12 samples.

Results

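Sinusoidal endothelial cells of the neonatal mouse liver were chosen by their UMIs (unique molecular identifiers, which mark single captured RNA molecules). A cell counted as sinusoidal when it held at least 3 UMIs of Stab2, Clec4g and Oit3 together. It also had to hold no UMI of Ptprc, Cd79a or Cd3e, at most 1 of C1qa, C1qb and C1qc, at most 1 of Reln, Lrat and Colec11, and under 10% of its UMIs from adult globins. The rule found 16907 cells among 202557 kept cells (8.35%), and the kept cells came from 207537 barcodes by a window of 500 to 50000 UMIs and at most 20% mitochondrial UMIs. Single-cell RNA-seq had been run on dissociated livers of 12 C57BL6/J pups of both sexes, 1 library per pup, collected on postnatal day 11. In 6 pups phlebotomy-induced anemia (PIA) was made by drawing 20 µL of blood per g from the facial vein on postnatal days 2, 4, 6, 8 and 10. This lowered the hematocrit from 45 to 60% down to 20 to 24%. The other 6 pups, the controls, had the needle stick without blood withdrawal, pups within each litter were assigned to a group at random, and all 12 libraries carried the same batch label. The comparison asked how the liver of a pup made anemic by blood loss differs from that of its non-bled controls.

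Liver sinusoids are capillaries with a fenestrated wall and little basement membrane, and their endothelium is the main scavenger endothelium of the body. These cells take up waste from the blood with stabilin, mannose and Fc receptors, make clotting factor VIII, and send BMP signals that set hepcidin and Wnt signals that pattern the hepatocytes around the central vein. Genes of other vascular beds are normally low in them.

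The label was checked with a marker that the rule did not use. Gpihbp1, which carries lipoprotein lipase to the surface of capillary endothelium, stood at 1282 ± 169 CPM (UMIs of the gene scaled to the same total over all genes in every mouse, SD, 12 mice) in the sinusoidal cells, 445 in large-vessel endothelial cells, 12.1 in Kupffer cells and 7.47 in B cells. The genes of the rule itself stood at 3696 CPM for Stab2, 807 for Clec4g and 516 for Oit3, and 69.8% of the cells held UMIs of all 3. Of 28825 kept cells with at least 3 marker UMIs, 5757 failed the immune term, 8444 the C1q term, 2140 the stellate term and 460 the globin term, and a cell could fail several. Just inside the threshold, 488 cells had exactly 3 marker UMIs, and 54.1 to 86.8% of them per mouse held a Gpihbp1 UMI. Just outside it, 713 cells with 2 marker UMIs met the other terms, and 50.8 to 76.8% of them held one. RNA of other cells was present at a low level. The hepatocyte transcript Alb stood at 708 CPM in the sinusoidal cells, next to 756 in B cells and 40228 in hepatocyte-like cells, and the Kupffer gene Clec4f at 9.92 CPM against 2506 in Kupffer cells.

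Libraries held 46252146 to 74545930 UMIs, and the sinusoidal cells of a mouse summed to 1854166 to 9361642 UMIs. The controls gave 1513 to 2052 sinusoidal cells each and the anemic mice 347 to 1532, the fewest from anemia 2 (347) and anemia 3 (600). The median cell held 2909 to 3673 UMIs in the controls and 3918 to 4547 in the anemic mice, with no overlap (exact two-sided Mann-Whitney p = 0.00216, the smallest that 6 against 6 allows). Among the barcodes of sinusoidal cells, 27 occurred in more than 1 library, 0 to 3 per pair of libraries. Y-linked expression was over 10 CPM in 2 control and 4 anemic mice and under 1 CPM in 3 control and 1 anemic mice, with the rest between. The study states equal numbers of both sexes, but by these values the sexes may not have been balanced between the sequenced groups.

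Sinusoidal endothelial cells made up a smaller share of the anemic livers. Their share of kept cells was lowest at 9.17%, 10.8% in the median and 13.02% at the highest in the controls, and 1.96%, 7.40% and 8.43% in the anemic mice. All 6 anemic mice lay below all 6 controls, and anemia 2 and anemia 3 lay well below the other 4. The means were 11.1% ± 1.53 and 6.06% ± 2.87 (SD, n = 6 each), a difference of -5.03 percentage points (exact two-sided Mann-Whitney p = 0.00216). The denominator mattered. Among kept cells with under 10% globin UMIs the means were 12.0% and 8.16% (p = 0.0649, exact), and among kept cells with at least 3 endothelial UMIs 35.8% and 27.6% (p = 0.0931, exact), with 3 of the 6 anemic mice below all controls in each case. Endothelial UMIs were those of Pecam1, Cdh5, Vwf, Stab2, Clec4g and Oit3. Cells with immune, C1q or stellate UMIs were not left out of that denominator, so it is not a count of endothelial cells. Vwf, which rose with anemia in the sinusoidal cells, is part of it. Dissociation sets which cells enter a library, so a lower share and fewer cells in the tissue cannot be told apart, and doublets were removed only through the terms of the rule. These terms took a larger part of the kept cells with at least 3 marker UMIs in anemia 2 and anemia 3. There 573 of 996 and 546 of 1305 failed the C1q term, against 776 of 3201 in control 4 and 781 of 2610 in control 1, the lowest and highest parts among the controls. The effect of this on the shares was not tested.

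**Figure D1:**
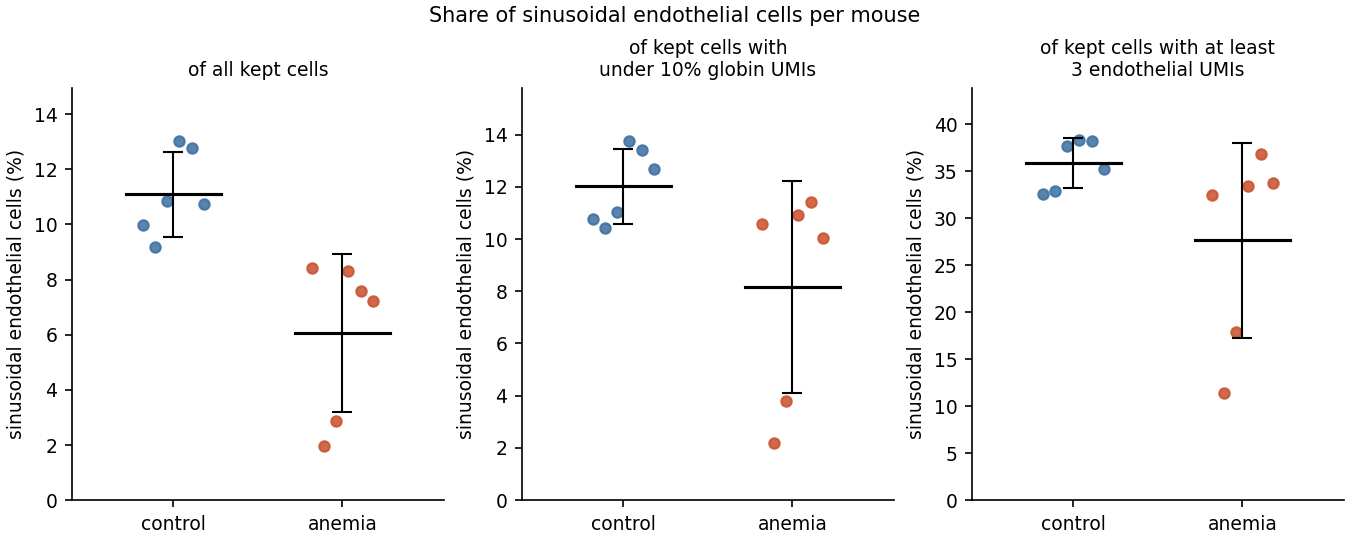
Share of sinusoidal endothelial cells (%, y axis) in each of 6 control (blue) and 6 anemic (red) mice, of all kept cells (left), of kept cells with under 10% globin UMIs (middle) and of kept cells with at least 3 endothelial UMIs (right), with group mean and SD as bars. The groups separate in the left panel (11.1% against 6.06%) and overlap in the other panels.

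Gene expression was compared on UMIs summed per mouse over the sinusoidal cells, with edgeR, over 15427 genes (hereafter CPM is scaled by TMM over these genes, and fold changes are log2 of anemia over control ± SE). At an adjusted p under 0.05, 2255 genes (14.6%) passed, 993 (6.44%) higher and 1262 (8.18%) lower in anemia. The values of the 6 controls and 6 anemic mice did not overlap for 7.46% of the genes, 514 genes (3.33%) on the higher side and 637 (4.13%) on the lower side. The median log2 fold change of all genes was 0.0015. Counts of list members below are read against these shares.

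Fgf23, the phosphaturic hormone known mainly from bone, rose in the sinusoidal cells. It encodes a secreted growth factor of the FGF family and lies at chr6:127072902-127081408 (GRCm38, plus strand). Control mice ranged from 62.2 to 102 CPM with a median of 81.0, and anemic mice from 633 to 1278 with a median of 912. The groups did not overlap, and the log2 fold change was 3.54 ± 0.21 (adjusted p = 2.6e-07). More of the cells held its RNA. After thinning every cell to 1000 UMIs, which left out 320 control and 222 anemic cells, 5.27% ± 1.39 of control and 36.1% ± 7.22 of anemic cells held a Fgf23 UMI (n = 6 each, exact p = 0.00216, adjusted over 8 genes 0.00577). The unthinned shares were 14.4% and 57.0%. B cells should lack the transcript, and 0.0177% of them in the controls and 0.252% in the anemic mice held a UMI after thinning. The level in Kupffer cells was 0.444 CPM in control and 2.90 in anemic mice. The promoter of Fgf23 is printed further on, beside those of hypoxia genes.

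Sinusoidal cells with and without a Fgf23 UMI were set side by side in the anemic mice. The values are descriptions over cells that share their mouse. A Selp UMI was found in 11.5% of thinned cells with Fgf23 and 5.76% of those without, higher in 6 of 6 mice, and a Slc2a1 UMI in 6.92% and 4.28%, again higher in 6 of 6. Portal-side Ntn4 went the other way, at 10.6% and 15.2%, lower in 6 of 6 mice. Gpihbp1 was also lower in 6 of 6 (66.8% and 73.2%), and Fabp5 higher in 6 of 6 (93.4% and 91.1%). Wnt2 was found in 8.84% and 10.4%, and Vwf in 16.6% and 19.4%, each higher with Fgf23 in 1 of 6 mice. Cd34, Kit and Rspo3 were also higher in 1 of 6 mice and Lyve1 in 5 of 6. In the controls, where fewer cells held Fgf23, Selp was found in 2.48% and 2.83% and was higher with Fgf23 in 2 of 6 mice. Control values were 3.00% and 1.93% for Slc2a1, higher in 5 of 6 mice, and 57.1% and 65.7% for Gpihbp1, lower in 6 of 6. Fabp5 was found in 59.3% and 61.7% of them and was higher with Fgf23 in 2 of 6 controls, Ntn4 in 5.34% and 7.12% and higher in 3 of 6, Wnt2 in 15.7% and 18.5% and higher in 1 of 6, and Vwf in 5.22% and 3.69% and higher in 4 of 6.

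Of 24 tested genes of fatty acid uptake and binding, 10 rose, 1 fell and 13 did not pass, with a median log2 fold change of 0.13. Fabp4 and Fabp5, cytosolic fatty acid carriers of capillary endothelium, rose in every anemic mouse. Fabp4 ranged from 3869 to 5204 CPM in the controls with a median of 4363, and from 12676 to 19130 with a median of 15155 in the anemic mice (1.83 ± 0.12, adjusted p = 3e-08). Fabp5 ranged from 1384 to 1834 CPM with a median of 1425 in the controls and from 4430 to 6793 with a median of 5551 in the anemic mice (1.92 ± 0.12, adjusted p = 2.6e-08). Neither gene overlapped between the groups. Angptl4, a secreted inhibitor of lipoprotein lipase, ranged from 5.80 to 9.49 CPM with a median of 7.48 and from 31.2 to 50.3 with a median of 46.7 (2.52 ± 0.15, adjusted p = 2.6e-08). The fatty acid transporter Cd36 rose from 532 to 985 CPM in the mean (0.89 ± 0.10, adjusted p = 1.9e-05) and Pparg, the nuclear receptor that governs lipid storage genes, from 38.1 to 97.9 (1.34 ± 0.16). The lipoprotein receptor Vldlr went from 2.42 to 18.2 CPM (3.00 ± 0.42), and the cholesterol exporter Abca1 from 144 to 312 (1.12 ± 0.15). The list's fall was that of Pltp, a phospholipid transfer protein (-0.60 ± 0.15), and Lpl itself did not pass (-0.05 ± 0.21, adjusted p = 0.901). In B cells Fabp4 stood at 41.6 CPM in control and 84.9 in anemic mice, next to 4036 and 13415 in the sinusoidal cells on the same all-gene scale.

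Genes of the central-vein side moved in both directions. Of 7 tested, Fabp4 rose and Wnt2, Wnt9b, Kit and Cdh13 fell (median of the list -0.77). Wnt2, a ligand by which central sinusoids pattern hepatocytes, ranged from 208 to 265 CPM with a median of 235 in the controls and from 57.7 to 182 with a median of 119 in the anemic mice (-0.98 ± 0.24, adjusted p = 0.0185). The 3 lowest anemic values belonged to anemia 2, 3 and 5, and the groups did not overlap. Thinned to 1000 UMIs, 18.6% of control and 9.67% of anemic cells held a Wnt2 UMI (exact p = 0.00216), with 0.211% and 0.0453% in B cells. Kit, the stem cell factor receptor, ranged from 138 to 168 CPM with a median of 148 and from 76.5 to 96.8 with a median of 87.2 (-0.77 ± 0.08, adjusted p = 4.8e-06). Wnt9b, the other central Wnt ligand, fell from 2.61 to 0.703 CPM (-1.78 ± 0.35, adjusted p = 0.0028) and lost its call without cells over 2 times the median UMIs (-0.96, adjusted p = 0.129). The cadherin Cdh13 fell from 390 to 222 CPM (-0.80 ± 0.21, adjusted p = 0.0241), a call that missed the threshold without control 6 (adjusted p = 0.0547) or anemia 5 (adjusted p = 0.0575). Rspo3, which amplifies Wnt signals at the central vein, had medians of 82.3 and 84.9 CPM (-0.09 ± 0.23, adjusted p = 0.830), and thrombomodulin, Thbd, medians of 229 and 201 (-0.21 ± 0.32, adjusted p = 0.724).

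On the portal side 4 of 7 genes rose and none fell (median 0.64). The Notch ligand Jag1 ranged from 12.2 to 16.6 CPM in the controls and 26.7 to 41.5 in the anemic mice (1.20 ± 0.11, adjusted p = 3.4e-06), and the adhesion receptor Adgrg6 from 7.94 to 19.7 and 25.2 to 45.7 (1.44 ± 0.19). The netrin Ntn4 rose from 96.7 to 194 CPM (1.00 ± 0.17) and the scavenger receptor Msr1 rose from 143 to 224 (0.64 ± 0.10). None of these overlapped between the groups. Dll4 (0.36 ± 0.13, adjusted p = 0.0824), Efnb2 and Ltbp4 did not pass.

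**Figure D2:**
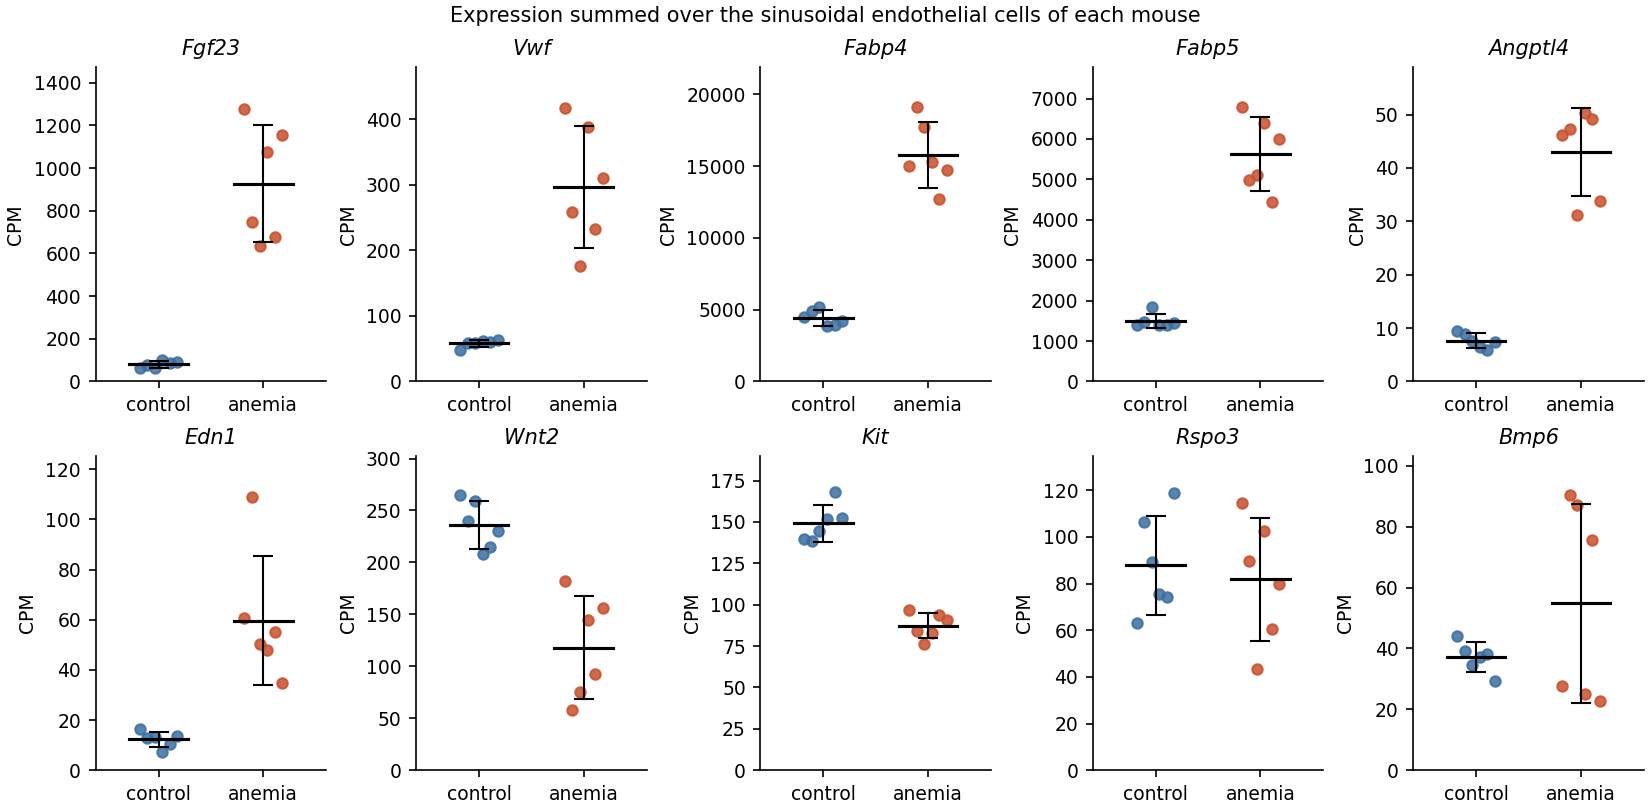
CPM (y axis, linear, from 0) of 10 genes in the sinusoidal cells of each control (blue) and anemic (red) mouse, with group mean and SD as bars. Fgf23, Vwf, Fabp4, Fabp5, Angptl4 and Edn1 lie higher and Wnt2 and Kit lower in all 6 anemic mice, Rspo3 overlaps throughout, and Bmp6 splits the anemic mice into 3 at 75.6 to 90.5 and 3 at 22.9 to 27.8 CPM.

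Of 16 tested genes of large vessels and ordinary capillaries, 8 rose, 1 fell and 7 did not pass (median 1.27). Vwf, the platelet-binding clotting glycoprotein, ranged from 47.9 to 63.0 CPM with a median of 59.0 in the controls and from 176 to 417 with a median of 284 in the anemic mice (2.36 ± 0.19, adjusted p = 3.7e-06). Every anemic mouse was above every control. Platelets also hold Vwf, and in cells without any UMI of the megakaryocyte and platelet list the change was 2.45 (adjusted p = 7.3e-06). The genes of that list are low in these cells, so a cell without such a UMI can still hold platelet RNA. This setting therefore cannot set platelet RNA apart, and its part in the change was not tested. Edn1, the vasoconstrictor peptide endothelin, ranged from 7.40 to 16.2 CPM with a median of 12.8 and from 34.9 to 109 with a median of 52.6 (2.25 ± 0.26, adjusted p = 0.00017). P-selectin, Selp, rose from 52.5 to 170 CPM (1.70 ± 0.23), the arterial connexin Gja5 from 7.76 to 25.5 (1.61 ± 0.28), the kinase Bmx from 1.21 to 4.47 (1.81 ± 0.26) and the capillary sialomucin Cd34 from 15.7 to 35.2 (1.16 ± 0.15), all without overlap. Cd34 UMIs were found in 1.27% of thinned control and 3.09% of thinned anemic cells (exact p = 0.00216). Ly6a, a surface protein of capillary endothelium that interferon also raises, had medians of 82.1 and 201 CPM, with anemia 2 at 1160 (2.21 ± 0.57, adjusted p = 0.0266). Its call missed the threshold without control 1, 4, 5 or 6 (adjusted p 0.054 to 0.062). The fall was that of Ramp3, a subunit of the adrenomedullin receptor, from 14.8 to 9.95 CPM (-0.48 ± 0.16, adjusted p = 0.0447), and it was lost without any 1 of 9 mice.

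Tip cell and angiogenesis genes rose in 10 of 19 cases and fell in none (median 0.51), with 6 to 12 higher and 0 to 2 lower over the other settings. Adm, which encodes the vasodilator adrenomedullin, ranged from 21.9 to 34.3 CPM in the controls and 58.3 to 120 in the anemic mice (1.67 ± 0.15, adjusted p = 4.9e-06). The pericyte growth factor Pdgfb rose from 2.37 to 10.9 CPM (2.04 ± 0.35) and the matrix glycoprotein Sparc from 1832 to 2857 (0.64 ± 0.10). The proteoglycan Esm1 had medians of 0.736 and 8.38 CPM with anemia 5 at 106 (5.06 ± 1.22, adjusted p = 0.0209), and with Y-linked expression as covariate its adjusted p was 0.0955. Anemia 5 was also highest for Apln (85.8 CPM, next highest 22.3) and Igfbp3 (74.3, next highest 16.4), both counted as risen. The Apln call missed the threshold without control 1, 2 or 4 (adjusted p 0.0521 to 0.0602) and with the Y-linked covariate (0.0717), and the Igfbp3 call without control 1, 4 or 6 (0.0546 to 0.0618) and with that covariate (0.0844). Angpt2, the vessel-destabilizing ligand, had medians of 13.4 and 22.6 CPM with anemia 5 at 122 and did not pass (1.54 ± 0.56, adjusted p = 0.0941). Of the VEGF and angiopoietin list 3 of 16 rose and 1 fell. The lymphatic growth factor Vegfc rose from 35.1 to 106 CPM without overlap (1.61 ± 0.26, adjusted p = 0.0023). Vegfa rose from 70.2 to 105 CPM (0.60 ± 0.18, adjusted p = 0.0402) but passed under only 12 of 26 other settings, and the call was lost without any 1 of 10 mice. The receptor Flt4 fell (-0.28 ± 0.08, adjusted p = 0.0258), a call lost without control 1, 2 or 4 or anemia 4 (adjusted p 0.0546 to 0.0712). Kdr, Flt1 and Tek, the receptors for VEGF and angiopoietin, had log2 fold changes of -0.18, 0.06 and -0.08 and did not pass.

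**Figure D3:**
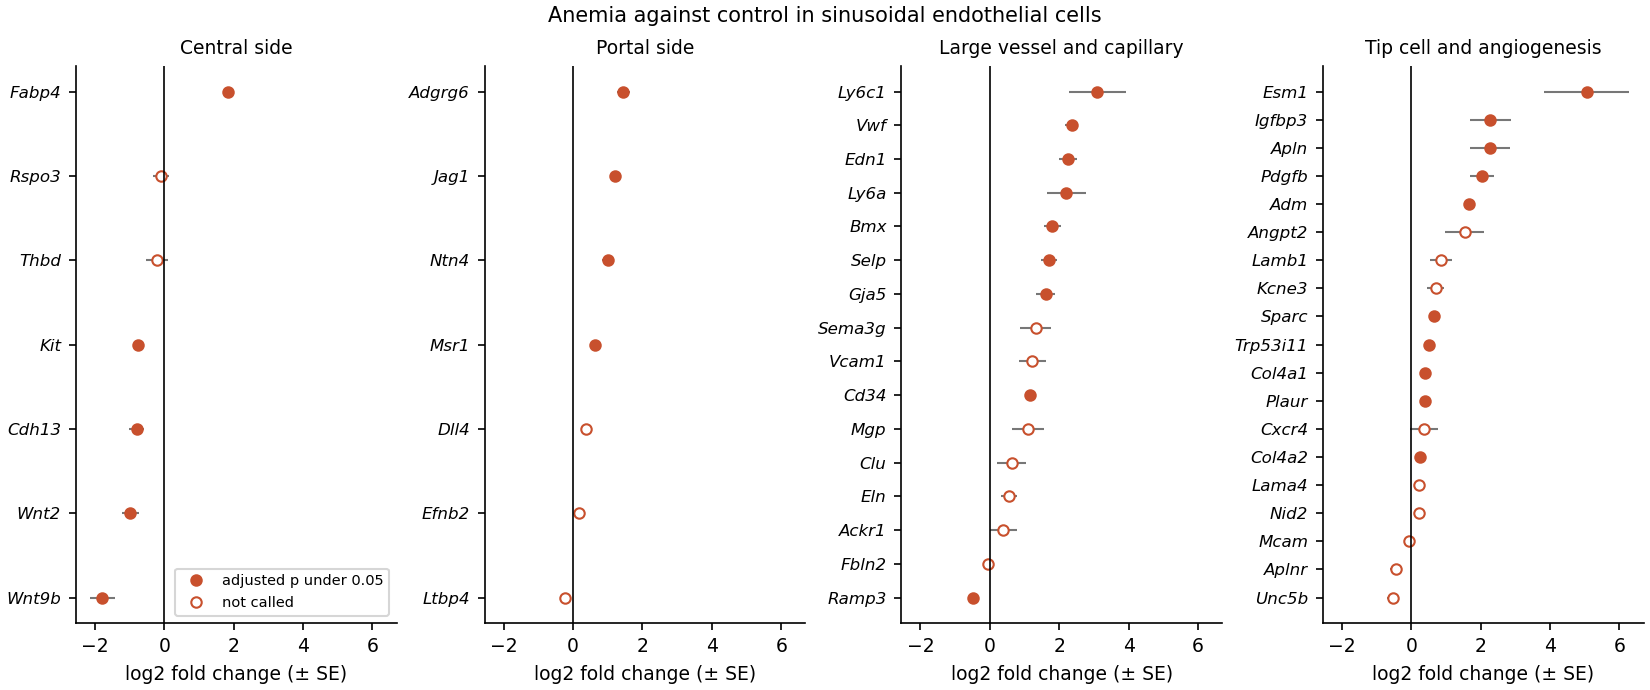
Log2 fold change of anemia over control (x axis, ± SE) for every tested gene of the central-side, portal-side, large-vessel and capillary, and tip cell lists, filled where the adjusted p was under 0.05. Calls were 1 higher and 4 lower of 7, 4 and 0 of 7, 8 and 1 of 16, and 10 and 0 of 19.

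Hypoxia and glycolysis genes rose most widely. Of 41 tested, 32 rose (78.0%, where 6.44% of all genes did) and none fell, with a median of 0.64. Pgk1, a glycolytic kinase, ranged from 285 to 361 CPM with a median of 300.1 in the controls and from 682 to 862 with a median of 735 in the anemic mice (1.29 ± 0.08, adjusted p = 3e-08). The glucose transporter Slc2a1 ranged from 20.2 to 25.2 CPM with a median of 22.1 and from 36.8 to 80.0 with a median of 67.2 (1.52 ± 0.14, adjusted p = 4.4e-06). Neither overlapped. The cytokine and tautomerase Mif rose from 133 to 303 CPM (1.19 ± 0.10), Tpi1 from 174 to 361 (1.05 ± 0.09), Hk2 from 27.0 to 62.5 (1.20 ± 0.14), and the mitophagy receptor Bnip3 from 104 to 210 (1.02 ± 0.13). Hif1a itself rose by a log2 fold change of 0.37 ± 0.09 (adjusted p = 0.0093), and Epas1, another HIF alpha subunit, did not pass (0.01 ± 0.09, adjusted p = 0.953). Over the other settings 26 to 36 members rose and 0 to 2 fell.

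Promoters of 300 bases, 250 before and 50 after the start site, were taken from RefSeq (GRCm38.p6). Only ACGTG, a form of the core of the hypoxia response element, was searched, on both strands (CACGT on the other). Other forms of the core were not searched, so a promoter without a match may still hold another form. ACGTG was found in 28 of 38 genes of the list with a promoter in the table (73.7%), in 22 of the 30 that rose, and in 5886 of all 27025 genes (21.8%). The list was made of hypoxia and glycolysis genes, so a high share comes with that choice and is not a result of anemia. A match is a description of the letters and not a binding site, and where CACGTG stands the searches on both strands overlap and count 2 matches. Fgf23 is shown as the hormone described above, with no match, and Pgk1, Slc2a1, Bnip3 and Adm as list members that rose, with 2, 1, 2 and 0 matches, in capitals. They lie at chr6:127072652-127072951 (plus), chrX:106186850-106187149 (plus), chr4:119108495-119108794 (plus), chr7:138909457-138909756 (minus) and chr7:110627407-110627706 (plus), and each reads 5′ to 3′ on the gene's strand.
Fgf23: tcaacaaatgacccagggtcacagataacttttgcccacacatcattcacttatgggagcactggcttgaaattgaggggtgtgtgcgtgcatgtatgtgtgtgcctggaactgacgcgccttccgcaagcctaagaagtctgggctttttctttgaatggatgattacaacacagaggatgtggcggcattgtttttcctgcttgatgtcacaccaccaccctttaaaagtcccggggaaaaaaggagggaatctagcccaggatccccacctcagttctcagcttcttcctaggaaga
Pgk1: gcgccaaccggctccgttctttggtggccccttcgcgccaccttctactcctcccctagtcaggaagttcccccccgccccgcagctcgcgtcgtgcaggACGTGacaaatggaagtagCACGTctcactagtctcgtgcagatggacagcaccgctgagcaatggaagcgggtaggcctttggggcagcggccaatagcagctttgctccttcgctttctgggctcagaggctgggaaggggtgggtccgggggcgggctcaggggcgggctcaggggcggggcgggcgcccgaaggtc
Slc2a1: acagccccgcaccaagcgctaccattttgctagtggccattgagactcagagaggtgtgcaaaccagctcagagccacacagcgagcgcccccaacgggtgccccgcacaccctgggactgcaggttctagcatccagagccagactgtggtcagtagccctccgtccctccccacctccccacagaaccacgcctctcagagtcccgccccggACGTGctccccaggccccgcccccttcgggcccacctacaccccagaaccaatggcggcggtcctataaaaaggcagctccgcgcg
Bnip3: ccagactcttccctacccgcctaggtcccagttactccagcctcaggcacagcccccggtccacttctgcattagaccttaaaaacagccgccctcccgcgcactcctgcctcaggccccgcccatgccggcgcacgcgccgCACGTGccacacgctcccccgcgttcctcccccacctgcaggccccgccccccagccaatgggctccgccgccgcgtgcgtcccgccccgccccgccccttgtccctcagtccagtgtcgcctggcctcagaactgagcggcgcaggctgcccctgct
Adm: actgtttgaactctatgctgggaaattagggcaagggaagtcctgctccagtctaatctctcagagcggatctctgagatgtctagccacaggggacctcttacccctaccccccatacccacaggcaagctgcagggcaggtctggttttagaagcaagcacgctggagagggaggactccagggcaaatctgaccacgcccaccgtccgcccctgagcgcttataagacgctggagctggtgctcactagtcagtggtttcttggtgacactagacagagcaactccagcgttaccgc

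Kupffer cells, the macrophages of the same sinusoids, gave a comparison within the mice. They were 14915 cells chosen by Clec4f, Vsig4, Cd5l and C1q. Of 40 hypoxia genes tested in both, 31 rose in sinusoidal cells, 19 in Kupffer cells and 17 in both, with medians of 0.62 and 0.77 (median of all Kupffer genes 0.03). Over all genes tested in Kupffer cells 239 of 14329 (1.67%) were called, against 14.6% in the sinusoidal cells. Calls depend on the SE as well as on the effect, and the SE differed between the classes. Gapdh was 0.77 ± 0.10 in the sinusoidal and 0.76 ± 0.24 in the Kupffer cells, and passed only in the former. Not every gene had its wider SE in the Kupffer cells. The counts of calls are therefore no measure of how strongly each class responded. In the test of the difference over 13420 genes, 388 (2.89%) differed, 192 (1.43%) with a higher and 196 (1.46%) with a lower effect in the sinusoidal cells. Hk2 (difference 1.03 ± 0.15) and Adm (1.19 ± 0.21) rose more in the sinusoidal cells. Vegfa rose more in the Kupffer cells, by 2.73 ± 0.20 there (difference -2.21 ± 0.23, adjusted p = 0.00025), as did the prolyl hydroxylase Egln3 (-2.03 ± 0.35). Of the lipid list 6 of 21 differed, all higher in the sinusoidal cells, among them Angptl4 (2.95 ± 0.35), Cd36 (1.89 ± 0.28) and Fabp5 (1.57 ± 0.15), while Fabp4 did not (0.23 ± 0.12, adjusted p = 0.318). Fabp4 also stood higher in the B cells of anemic mice, as given above. The part of carried-over RNA in its Kupffer change was not tested. Of 23 immediate early and heat shock genes 11 differed, all with a higher effect in the sinusoidal cells. The list's median difference was 0.68 and its median in the sinusoidal cells 0.26, so this contrast is not a sinusoidal rise alone. The Fgf23 effect did not differ (1.09 ± 0.89, adjusted p = 0.559), at the low Kupffer levels given above. Without control 1, 4, 5 or 6 the number of differing genes was 229, 195, 225 and 197.

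**Figure D4:**
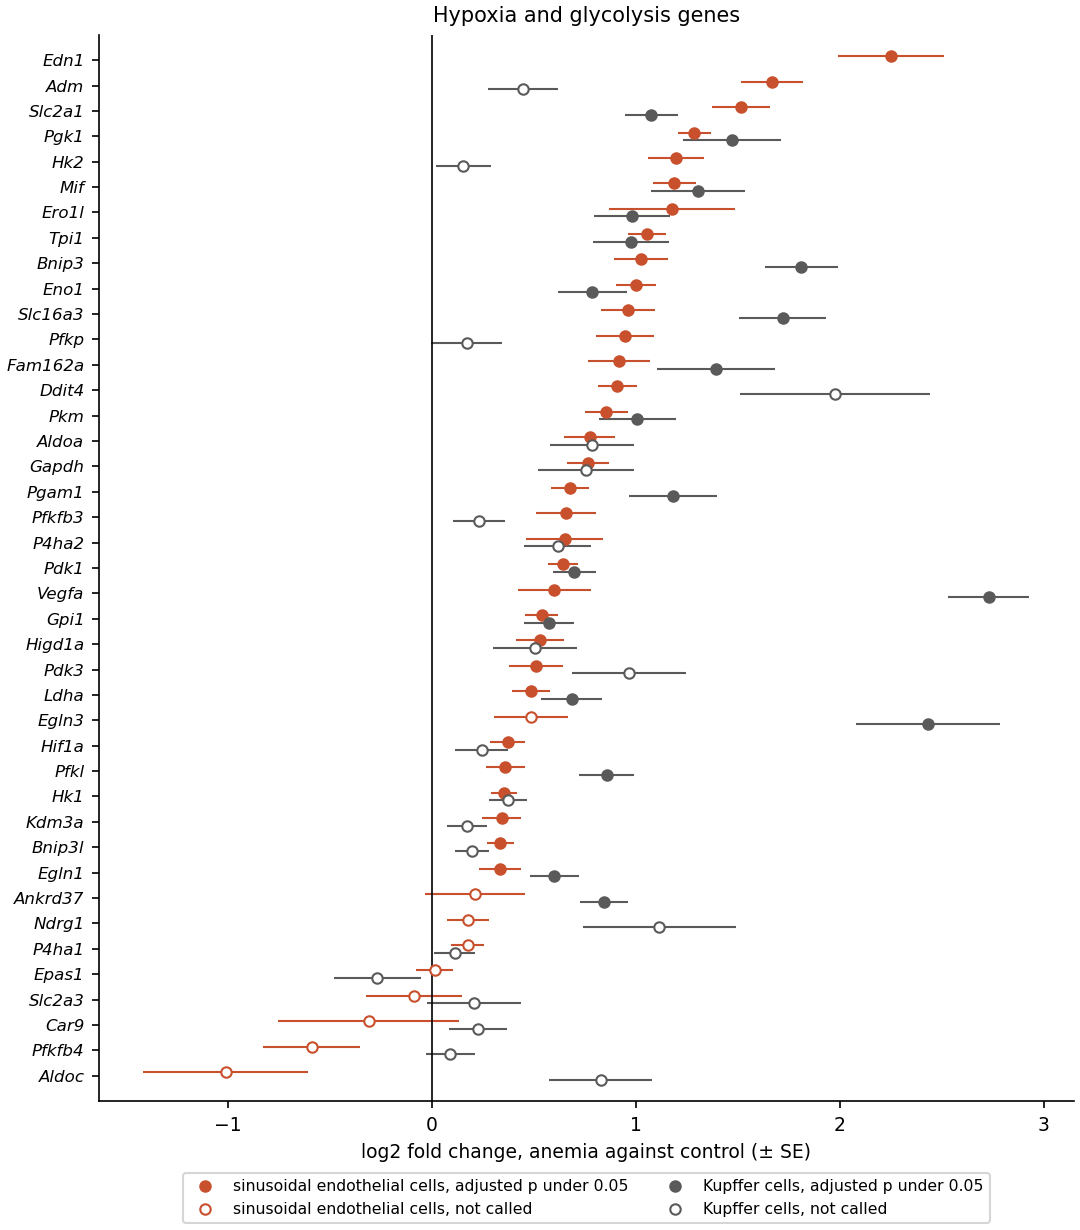
Log2 fold change of anemia over control (x axis, ± SE) of 41 hypoxia and glycolysis genes in sinusoidal endothelial (red) and Kupffer cells (grey), filled where the adjusted p was under 0.05. Of the 40 genes tested in both, 31 were filled for sinusoidal and 19 for Kupffer cells, and Vegfa, Egln3, Hk2, Adm and Aldoc differed between the cells.

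Large-vessel endothelial cells were few, 567 in all and 17 to 88 per mouse, which limits this contrast. They were also chosen by Vwf, which rose with anemia in the sinusoidal cells. The choice itself may therefore differ between the groups, for every gene tested here. Of 6894 genes tested 25 (0.363%) differed, 20 (0.290%) with a higher effect in the sinusoidal cells. Among these were the membrane glycoprotein Gpm6a (2.83 ± 0.27, adjusted p = 3.3e-07), A2m (2.44 ± 0.44), Edn1 (1.70 ± 0.22), Fabp4 (1.45 ± 0.27), Fabp5 (1.39 ± 0.20) and Gja5 (1.05 ± 0.21). Of the 5 with a lower effect (0.0725%), Bmp2 is a ligand that signals to hepatocytes for hepcidin. It rose by 2.16 in large-vessel cells (adjusted p = 0.0132) and did not pass in sinusoidal cells (difference -2.38 ± 0.41, adjusted p = 0.0104). The Fgf23 effect did not differ (-0.14, adjusted p = 1.00), from 12.4 to 169 CPM in the large-vessel cells.

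Neither BMP ligand passed the test, and few iron genes did. Bmp2 had medians of 334 and 283 CPM (-0.20 ± 0.11, adjusted p = 0.242). Bmp6, the ligand that iron load raises, had medians of 37.8 and 51.7 CPM, with anemia 2, 3 and 5 at 90.5, 87.1 and 75.6 and the other 3 below every control at 22.9 to 27.8 (0.50 ± 0.38, adjusted p = 0.416). Of 28 genes of BMP and TGF-beta signaling 5 rose and none fell (median 0.16), 17.9% called where 14.6% of all genes were. Over the other settings 3 to 6 rose and 0 to 1 fell. The rises included the receptor Bmpr2, from 446 to 686 CPM without overlap (0.62 ± 0.10, adjusted p = 0.0005), and the co-receptor Tgfbr3 (0.39 ± 0.08). Smad5 and Id3 also rose, but each passed under only 11 of 26 other settings. Of 24 iron and heme genes 1 rose and 1 fell (median -0.0038). The iron exporter Slc40a1 went from 80.3 to 97.9 CPM (0.28 ± 0.09, adjusted p = 0.0427) and passed under only 10 of 26 other settings, lost without any 1 of 8 mice. The heme exporter Flvcr1 fell from 37.3 to 26.2 CPM (-0.46 ± 0.13, adjusted p = 0.0257), and missed the threshold without control 4 or 5 or anemia 4 (adjusted p 0.0501 to 0.0628). The transferrin receptor Tfrc did not pass (0.05 ± 0.15). Metallothioneins, which bind zinc and copper, rose, with Mt1 from 233 to 531 CPM (1.19 ± 0.17) and Mt2 from 21.4 to 56.1 (1.40 ± 0.21), the 2 calls among 16 metallothionein and NRF2 genes. The study also reported higher Mt1 and Mt2 in erythroid cells and higher Mt2 in B cells of the anemic livers. The rise is therefore not particular to the sinusoidal cells, and the part of carried-over RNA in it was not tested.

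Some scavenger and identity genes changed in each direction. Of 21 scavenger and endocytosis genes 6 rose and 1 fell (median 0.07), 33.3% called where 14.6% of all genes were. The rises included the lysosomal proteases Ctsl, from 997 to 1658 CPM (0.73 ± 0.10), and Ctsb (0.40 ± 0.07), and the HDL receptor Scarb1 (0.62 ± 0.09). The endocytic ATPase Ehd3 fell from 943 to 693 CPM (-0.44 ± 0.10). The mannose receptor Mrc1 (0.00 ± 0.09), Stab1 (-0.26 ± 0.09, adjusted p = 0.0585, though it passed under 7 of 26 other settings), Lyve1 (0.28 ± 0.14) and the Fc receptor Fcgr2b (-0.18 ± 0.10) did not pass, and a Lyve1 UMI was found in 33.0% and 36.0% of thinned cells (exact p = 0.699). Of 22 identity genes 3 rose and 4 fell (31.8% called), with 3 to 5 higher and 2 to 5 lower over the other settings. The falls of Flt4 and the cyclooxygenase Ptgs1 were both lost without control 1, 2 or 4. Gata4, the transcription factor that specifies liver sinusoids, ranged from 306 to 324 CPM in the controls and 223 to 256 in the anemic mice without overlap (-0.36 ± 0.06, adjusted p = 0.0011). Gpihbp1 rose (0.36 ± 0.09, adjusted p = 0.0136), while its thinned share, 66.2% and 70.2%, gave an exact p of 0.0260 and 0.0519 adjusted over the 8 genes. Of 25 general endothelial genes 6 rose, 2 fell and 17 did not pass (median 0.05, 32.0% called), with 4 to 8 higher and 0 to 4 lower over the other settings. Those that rose were Cd34, Cyyr1, S1pr1, Sox17, Robo4 and Erg, and those that fell were Ets2 and Fli1. The calls of Erg, Ets2 and Fli1 were lost without any 1 of 10, 6 and 9 mice. The junction genes Pecam1 (-0.12 ± 0.10) and Cdh5 (0.01 ± 0.08) did not pass.

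Among angiocrine ligands 10 of 28 rose and 4 fell (median 0.44, with 6 to 13 higher and 1 to 4 lower over the other settings), including Fgf23 and Edn1 above. Ccn2, the connective tissue growth factor, ranged from 4.34 to 13.1 CPM in the controls and 16.7 to 216 in the anemic mice, with anemia 2, 3 and 5 highest (3.71 ± 0.77, adjusted p = 0.0106). In the Notch pathway 2 of 16 rose, Jag1 and the target Hey1 (from 1.78 to 5.32 CPM, 1.51 ± 0.25), and 5 fell, among them the receptor Notch1 (265 to 212 CPM, -0.32 ± 0.08) and the modifier Lfng (-0.62 ± 0.14). Over the other settings 1 to 4 of the list rose and 2 to 5 fell. The calls of the ligand Dll1 and the receptor Notch3 were both lost without control 1 or control 4, and Notch3 passed under only 13 of 26 other settings. Of 14 flow-responsive genes 5 rose, including the connexin Gja4 (58.1 to 108 CPM, 0.88 ± 0.14), while the shear-responsive factor Klf2 did not pass (-0.25 ± 0.18, adjusted p = 0.373). Of 30 adhesion and chemokine genes 5 rose and 4 fell (median 0.36). E-selectin, Sele, rose from 31.4 to 110 CPM (1.82 ± 0.26) and Icam1 from 264 to 367 (0.48 ± 0.11). Selplg, the selectin ligand PSGL-1, ranged from 44.2 to 49.3 CPM with a median of 46.4 in the controls and from 19.0 to 23.7 with a median of 22.0 in the anemic mice (-1.10 ± 0.08, adjusted p = 1.3e-07). Il1a fell from 135 to 70.5 CPM (-0.92 ± 0.14), also without overlap. Selplg and Il1a fell more than in Kupffer cells (differences -1.07 ± 0.12 and -0.85 ± 0.20). Of 18 coagulation genes 6 rose and 1 fell. Besides Vwf, factor V, F5, rose from 8.13 to 19.4 CPM (1.21 ± 0.23), the vitamin K-dependent ligand Gas6 fell from 95.7 to 59.2 (-0.67 ± 0.12), and factor VIII, F8, had medians of 792 and 1026 and did not pass (0.37 ± 0.12, adjusted p = 0.0516), though it did under 9 of 26 other settings, DESeq2 and voom among them. Of 24 matrix genes 9 rose and none fell (median 0.26), with 6 to 11 higher and 0 to 2 lower over the other settings. Among the 9 were the protease inhibitors Timp1 (1.82 ± 0.39) and Timp3, from 420 to 693 CPM (0.72 ± 0.09). The calls of Col4a2, Adamts1 and Nid1 held under only 6, 10 and 14 of 26 other settings. Of 23 immediate early and heat shock genes 7 rose (4 to 12 over the other settings), with the cytokine-signal suppressor Socs3 from 76.6 to 221 CPM without overlap (1.52 ± 0.14, adjusted p = 5.3e-06).

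Few or no genes of the cell cycle, interferon and antigen presentation lists passed. Of 40 cell cycle genes the inhibitors Cdkn1a (151 to 223 CPM, 0.57 ± 0.09, adjusted p = 0.00039) and Cdkn1b rose (median -0.05), and the Cdkn1b call was lost without any 1 of 8 mice. Mki67 UMIs were found in 3.44% of control and 3.17% of anemic cells after thinning (exact p = 0.180), where B cells gave 15.7% and 12.8%. Of 39 interferon response genes none passed with edgeR, 7 had an unadjusted p under 0.05, and DESeq2 called 2 higher and 1 lower. Over the other settings 0 to 14 of them rose, 14 in the fit with a replicate block, and 0 to 1 fell. The list's median was 0.61 with all mice and 0.0013 without anemia 2 and anemia 3. Its summed level was 4741 to 9460 CPM in the controls, 16029 in anemia 2 and 11248 in anemia 3. Of 23 antigen presentation genes none passed with edgeR, none had an unadjusted p under 0.05, and DESeq2 called 0. Their median went from 0.41 to -0.46 without those 2 mice.

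**Figure D5:**
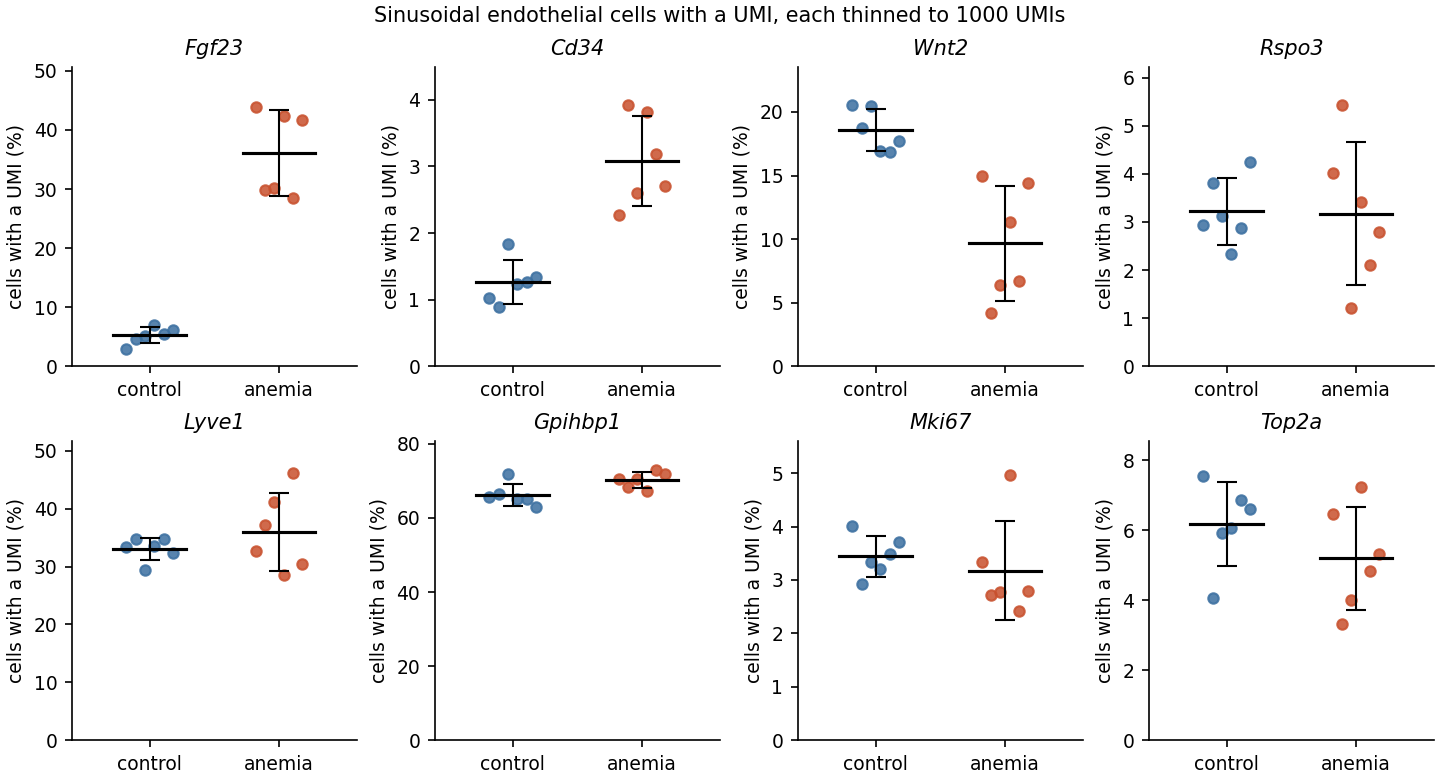
Share of sinusoidal cells (%, y axis) of each control (blue) and anemic (red) mouse with at least 1 UMI of 8 genes, after thinning each cell to 1000 UMIs, with group mean and SD as bars. Fgf23 (5.27% against 36.1%), Cd34 (1.27% against 3.09%) and Wnt2 (18.6% against 9.67%) separate the groups, and Rspo3, Lyve1, Mki67 and Top2a overlap.

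The lists of other cells were read against the 14.6% of all genes called. Of 28 hepatocyte genes 2 rose and 1 fell, and the list summed to 4277 to 8849 CPM in the controls and 1298 to 5096 in the anemic mice. Of the rises, that of Serpina3k passed under only 15 of the 25 other settings that tested it. Cyp2e1 fell from 39.5 to 9.86 CPM in the sinusoidal cells and stood at 41.2 and 9.41 in B cells, and Apoc3 rose from 28.4 to 87.8 and stood at 27.9 and 86.4 in B cells. Of 10 megakaryocyte and platelet genes 5 rose and 1 fell, summing to 45.2 to 92.7 and 63.4 to 183 CPM. Of 14 erythroid genes 4 rose and 1 fell, at 130 to 139 and 132 to 181 CPM, while adult globins took 0.067 to 0.156% and 0.148 to 0.359% of the UMIs. Of 14 stellate genes only the pericyte gene Rgs5 rose (4.03 to 10.5 CPM), with the list at 264 to 519 and 274 to 1012 CPM. Of 14 Kupffer genes 1 rose, the iron exporter Slc40a1 named above, which passed under only 10 of 26 other settings. The Kupffer list stood at 211 to 257 and 170 to 439 CPM, highest in anemia 2 and anemia 3. Of 13 neutrophil genes 1 fell, at 92.5 to 546 and 107 to 1129 CPM. Lymphocyte genes had 0 calls of 13 with edgeR (5 at an unadjusted p under 0.05, 2 with DESeq2), at 57.5 to 127 and 38.5 to 113 CPM, and cholangiocyte genes 0 of 9 (0 at an unadjusted p under 0.05, 0 with DESeq2). The defining genes Ptprc, Cd79a and Cd3e were at 0 by the rule. The part of this RNA in the changes above was not tested. Some settings left out cells with more of it, and Cyp2e1 and Apoc3 still passed under all 26 other settings.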

How the data were processed

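The authors aligned reads of the dissociated livers to mm10 with Cell Ranger 7.0.0 and deposited, per mouse, a matrix of UMI counts, raw and not normalized. The labels name another version of the kit than the methods, and whether intronic reads were counted was not given in the sources used here. The lowest total in a deposited matrix was 500 UMIs, so cells had been filtered. Library totals ran from 46252146 to 74545930 UMIs.

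Cells were kept at 500 to 50000 UMIs and at most 20% mitochondrial UMIs, and sinusoidal endothelial cells were chosen by the rule in the report. Their UMIs were summed per mouse, so each mouse is 1 replicate. Genes were tested where the mean over the mice reached 5 UMIs, leaving out mitochondrial, ribosomal protein and rule genes, and edgeR 4.0.16 (TMM, robust quasi-likelihood test, group only, in R 4.3.3) compared 6 anemic with 6 control mice, with Benjamini-Hochberg adjustment over all genes tested. Differences from Kupffer and large-vessel cells were tested as an interaction with mouse as a block. Large-vessel cells held at least 2 Vwf UMIs, so Vwf was not compared there. Leaving Vwf out does not undo that choice for the other genes. Shares were compared by exact two-sided Mann-Whitney tests (scipy 1.17.1), and shares of cells with a UMI after thinning to 1000 UMIs. No doublet caller was run. On simulated counts over 15223 genes with known changes, the edgeR step recovered 75 of 99 genes changed by 1 and 94 of 97 changed by 2 on the log2 scale, with 11 false calls.

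Named were the genes of the rule, a fixed set of endothelial genes, up to 4 called genes per list by adjusted p, and, outside the lists, up to 10 called genes per direction by fold change among those without overlap, with a group mean of at least 10 CPM and a level not below that of the other cells (up to 3 below it). Other list members were named to describe their list, after their values were seen. The cells, lists and genes were chosen with earlier results of these data known. Alternatives were other size factors, filters, cell rules, DESeq2 1.42.0, limma voom 3.58.1, a Y-linked covariate, a replicate block and leaving out each mouse. Leaving out cells with platelet UMIs, and leaving out anemia 2 with anemia 3, were added after seeing the data. Coordinates are from GENCODE M21 (GRCm38) and promoters from RefSeq (GRCm38.p6). Promoters of Vwf, Fabp4, Fabp5, Angptl4 and A2m were not analysed here.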

Additional observations from a re-analysis of the deposited data

Results flagged for a closer look

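The 2 comparisons between cell classes gave genes whose response to anemia differed by a test of the difference itself, 388 genes against Kupffer cells and 25 against large-vessel endothelial cells. In 10 cases a single mouse stood apart from the other 5 of their group by the gap to the nearest of them. Chance flags about 1 in 20 groups, and 122 groups were examined. In the sinusoidal cells of the controls these were Wnt9b in control 6 (4.83 CPM, others 1.63 to 2.65), Kdr in control 2 (1427, others 1218 to 1296), Angpt2 in control 2 (20.5, others 12.1 to 14.7), Cd36 in control 2 (611, others 505 to 535), Tek in control 3 (377, others 434 to 461), Cd34 in control 3 (22.0, others 12.3 to 15.5), Gpihbp1 in control 3 (1539, others 1173 to 1266), Mrc1 in control 3 (1262, others 1515 to 1653) and Vwf in control 1 (47.9, others 57.8 to 63.0). Among the anemic mice it was the thinned share of cells with a Mki67 UMI in anemia 4 (4.96%, others 2.41 to 3.34%). Control 3, which held the fewest UMIs of the 12 libraries, was marked for 4 genes.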

How the results depend on the processing

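Of 106 named genes that passed, 92 passed under all 26 alternatives and none changed sign, and of 151 called list genes 100 passed under all of them. Of the named genes that did not pass, 9 passed under some alternative, F8 under 9, Stab1 under 7, Dll4 under 2, and Bmp2, Kdr, Flt1, Angpt2, Kitl and Hgf under 1 each. Sinusoidal shares differed by -3.85 points among cells with under 10% globin and by -8.20 among kept cells with at least 3 endothelial UMIs, neither past the threshold, and by -5.50 to -4.21 without single mice. Without TMM factors 2013 genes were lower and 695 higher, which moved the higher part of the calls from 44.0% to 25.7% and the median of all genes by -0.082. Leaving out single mice gave 723 to 1133 higher and 896 to 1370 lower genes, 1619 to 2444 in all. Deviations of same-numbered mice had r of -0.11 to 0.43, over 0.1 in 3 of 6 pairs, and only the mice numbered 4 correlated best with their own number, so the numbers were not taken as pairs. A replicate block gave 952 higher and 1127 lower genes (2079), a paired exact p of 0.0312 for the share and 14 higher interferon genes, where 0 passed without it. Genes that differed from Kupffer cells numbered 454 without TMM factors, 503 at a mean of 50 UMIs and 195 to 478 without single mice. From large-vessel cells they numbered 18 to 35. The thinned Gpihbp1 difference passed unthinned (2.07 points), at 2000 UMIs (3.29), and without control 3 (exact p adjusted over the 8 genes, 0.00866) or anemia 4 (adjusted likewise, 0.0485), with a range of 3.41 to 5.17. The Mki67 share changed sign unthinned (0.973 points) and ranged from -0.633 to -0.124 without single mice (0.0485 without anemia 4, the exact p adjusted over the 8 genes, where it was 0.287 with all mice), and the Rspo3 share changed sign unthinned (0.682) and at 2000 UMIs (0.00471), with a range of -0.506 to 0.338. Without single mice the thinned differences were 29.3 to 32.4 points for Fgf23, -9.95 to -7.80 for Wnt2, 1.65 to 1.98 for Cd34, 0.985 to 4.49 for Lyve1 and -1.41 to -0.610 for Top2a. Genes that did not pass changed sign as follows, on the log2 scale. Without TMM factors Flt1 was -0.025, Mrc1 -0.081, Tfrc -0.035 and Mki67 -0.063. Mrc1 was -0.0091 with no filter, -0.015 at a mean of 50 UMIs, -0.0035 at 10% mitochondrial UMIs, -0.027 with the Y-linked covariate, -0.024 with voom and -0.0019 in cells with less RNA of other cells. Rspo3 was 0.19 at 5 marker UMIs, 0.059 without large cells, 0.14 without platelet UMIs, 0.028 without anemia 2 and 3 and 0.030 with voom. Mki67 was -0.026 with the block, -0.13 without large cells and -0.039 without platelet UMIs. Top2a was 0.025 with the Y-linked covariate and 0.12 without anemia 2 and 3, where Tek was 0.029. Hgf was -0.00052 without large cells and -0.25 in cells with less RNA of other cells, where Tfrc was -0.055. Bmp6 was -0.13 with voom. Without single mice the ranges were -0.14 to 0.13 for Mki67, -0.048 to 0.044 for Mrc1, -0.20 to 0.00016 for Cxcl12, -0.22 to 0.028 for Rspo3, -0.047 to 0.16 for Flt1, -0.23 to 0.057 for Top2a, -0.031 to 0.17 for Tfrc and -0.036 to 0.25 for Hgf. The cause of these changes was not tested. Depth limits the large-vessel contrast, which rested on 17 to 88 cells per mouse, and thinned shares under about 5% rest on few UMIs.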

Other observations

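Genes outside the lists also separated the groups. Among genes outside the lists that had no overlap, a group mean of at least 10 CPM and a level not below that of the other cells, the highest fold changes belonged to A2m, a protease-trapping plasma protein, which ranged from 10.8 to 19.7 CPM in the controls and 87.8 to 213 in the anemic mice (3.33 ± 0.21, adjusted p = 3.8e-07), and to the noncoding RNA Platr31, from 4.62 to 44.9 CPM in the mean (3.28 ± 0.19). Platr31 lies at chr6:127100297-127110467, beyond the end of Fgf23 (chr6:127072902-127081408) and on the same plus strand. Whether its rise is separate from that of Fgf23 was not tested. The axon guidance ligand Sema3a, which also guides vessels, rose from 3.22 to 29.7 CPM (3.16 ± 0.20), more than in Kupffer cells (difference 3.25 ± 0.63). Kcnj8 and Abcc9, the pore and the sulfonylurea receptor of the vascular ATP-sensitive potassium channel, rose together. Kcnj8 ranged from 3.15 to 7.56 CPM and from 21.2 to 55.4 (2.77 ± 0.30), and Abcc9 from 63.1 to 118 and from 333 to 617 (2.31 ± 0.17, adjusted p = 8.3e-07). The genes lie on the minus strand of chromosome 6 with 16247 bases between them, and pericytes express both. The pericyte marker Rgs5 rose too, from 4.03 to 10.5 CPM. In cells with less RNA of other cells Kcnj8 rose by 2.87 and Rgs5 by 1.40 (adjusted p = 0.0029). Those cells were chosen by lists that hold Rgs5 but not Kcnj8 or Abcc9, so this setting cannot set pericyte RNA apart. The part of pericyte RNA was not tested. Cfap69 (57.0 to 342 CPM, 2.58 ± 0.14), Gpm6a (10.2 to 59.9, 2.51 ± 0.20), the chloride channel Ano2 (9.73 to 47.8, 2.32 ± 0.28), Clca3a1 (24.2 to 120, 2.29 ± 0.18) and Wdr17 (3.71 to 16.4, 2.11 ± 0.22) rose without overlap. The 3 genes named below the level of the other cells, the oxidized LDL receptor Olr1 (1.22 to 12.9 CPM, 3.21 ± 0.46), the guanine deaminase Gda (3.10 ± 0.40) and the cytokine receptor subunit Csf2rb2 (2.89 ± 0.43), rose as well.

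On the lower side were the kinase Cdk18, from 11.0 to 1.46 CPM (-2.80 ± 0.21, adjusted p = 2.8e-07), the teneurin Tenm1 (16.5 to 2.93, -2.26 ± 0.30), AC150683.1 (-1.97 ± 0.39), Gm11290 (-1.68 ± 0.33), the ceramidase Acer1 (21.9 to 6.87, -1.65 ± 0.27), Odf4 (-1.48 ± 0.24), 6230400D17Rik (-1.47 ± 0.17) and the kinase Mast1 (143 to 53.2, -1.43 ± 0.29). Atcay (-1.64 ± 0.20) and Atcayos (-1.42 ± 0.21) fell together, and they overlap by 6370 bases on opposite strands. Whether reads were counted by strand was not given in the sources used here, and whether the counts tell the genes apart where they overlap was not tested. Below the level of other cells, Ifitm10 (46.7 to 15.1 CPM, -1.57 ± 0.19), Car3 (-2.08 ± 0.53) and the hepatocyte gene Lect2 (-1.51 ± 0.27) fell. The Car3 call was lost with a replicate block, with Y-linked expression as covariate, with voom, without anemia 5, and without anemia 2 and anemia 3 together (adjusted p up to 0.0889).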
